A study of Sus scrofa with 3 samples.

Results

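The miRNAs of the slow myosin genes in porcine psoas major muscle, ssc-miR-208b and the arms of miR-499, were followed over 3 ages of growing pigs (63, 98 and 161 d). Members were all porcine mature miRNAs whose names are forms of miR-208 or miR-499, with any letter or arm. There were 3 of them among 276 porcine mature names: ssc-miR-208b, ssc-miR-499-5p and ssc-miR-499-3p. The first 2 carry nearly all the reads, and ssc-miR-499-3p is the opposite arm of the miR-499 hairpin.

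Small RNA was sequenced from psoas major, a loin muscle, of castrated males of a hybrid of Landrace, Large White and Duroc, kept on a feeding programme whose protein and lysine content was stepped down as body weight grew. Each age (D63, D98 and D161) was represented by 1 library, for which equal amounts of RNA from 6 pigs were pooled. No group received a treatment, but body weight and diet changed along with age, and their parts cannot be told apart. In order of age, the libraries held 1464699, 2418187 and 2242716 listed reads. Of these, 847812, 1532306 and 1375093 were counted for porcine mature miRNAs, at 1 hairpin per name. With 1 pooled library per age there is no replicate, so no difference below could be tested between ages. Intervals are 95% intervals that cover counting error in these libraries only, and PCR reads without molecular identifiers are not independent molecules. In whole muscle, fewer fibres of a type and less RNA per fibre cannot be told apart.

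A myosin gene makes the motor protein of the muscle fibre, and some myosin heavy chain genes also carry a miRNA in an intron. MYH7 encodes the heavy chain of slow, oxidative fibres and holds miR-208b, MYH7B is a related gene that holds miR-499, and the heart gene MYH6 holds miR-208a. The 3 miRNAs are known as a group that favours slow fibre genes by acting on repressors of the slow programme such as Sox6. In the RefSeq annotation of the assembly Sscrofa11.1, MIR208B lies inside MYH7 on chromosome 7 and MIR499 lies inside MYH7B on chromosome 17.

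The mature sequences are shown because miR-208b and miR-499-5p come from different genes and share most of the seed, the stretch (bases 2 to 8, in capitals, counted from the 5′ end) with which a miRNA finds its targets. They are written 5′ to 3′ as DNA letters, as deposited. The third line is the opposite arm of the miR-499 hairpin, and the last line is a miR-208a read that the authors listed under its bovine name.
ssc-miR-208b: aTAAGACGaacaaaaggtttgt
ssc-miR-499-5p: tTAAGACTtgcagtgatgttt
ssc-miR-499-3p: aACATCACagcaagtctgtgct
bta-miR-208a: aTAAGACGagcaaaaagcttgt

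Bases 2 to 7 of ssc-miR-208b and ssc-miR-499-5p were the same, TAAGAC. Within the first 8 bases they differed at both ends, A1T and G8T, with the base of ssc-miR-208b given first. Beyond base 8 they matched at 4 of 13 positions. By contrast, ssc-miR-208b and bta-miR-208a were equal over the first 8 bases and matched at 19 of 22 positions, with the differences A10G, G16A and T18C. Of the 276 porcine mature names, ssc-miR-208b and ssc-miR-499-5p were the only 2 whose reads began with TAAGAC at base 2. The opposite arm, ssc-miR-499-3p, shared bases 2 to 7 with no other listed miRNA.

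The hairpins show which arm each miRNA comes from. Capitals mark the arms seen as reads in the 63 d library.
ssc-mir-208b: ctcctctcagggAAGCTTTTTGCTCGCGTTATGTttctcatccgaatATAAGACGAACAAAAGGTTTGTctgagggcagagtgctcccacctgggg
ssc-mir-499: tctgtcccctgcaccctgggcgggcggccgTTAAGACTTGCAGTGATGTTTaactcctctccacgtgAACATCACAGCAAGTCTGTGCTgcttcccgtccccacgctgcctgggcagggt
bta-mir-208a: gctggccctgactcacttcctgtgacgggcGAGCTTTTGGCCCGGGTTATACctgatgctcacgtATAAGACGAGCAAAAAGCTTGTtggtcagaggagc

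In the 96 base hairpin of miR-208b, the mature miRNA occupied bases 48 to 69, the 3′ arm. In the 120 base hairpin of miR-499, the 5p arm occupied bases 31 to 51 and the 3p arm bases 68 to 89. The authors placed ssc-mir-208b at positions 81071310 to 81071405 on the minus strand and the miR-208a hairpin at positions 81043844 to 81043943 on the same strand of the same genome sequence. The 2 hairpins were 27366 bases apart. The authors placed ssc-mir-499 at positions 43571130 to 43571249 on the plus strand of another genome sequence. The genome build of these coordinates is not given in the sources used here.

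ssc-miR-208b had its lowest level at 63 d. It was counted 783 times at 63 d, 2747 times at 98 d and 1843 times at 161 d. After scaling by the median of ratios over porcine mature miRNAs, these were 1129 (interval 1052 to 1211), 1955 (1883 to 2030) and 1758 (1678 to 1840) normalised reads. The 3 intervals did not overlap, and the order was 63 d, 161 d, 98 d from low to high. As a share of the porcine mature reads of its library, ssc-miR-208b made up 0.0924% (0.0861 to 0.0991), 0.179% (0.173 to 0.186) and 0.134% (0.128 to 0.140), with Wilson intervals. It ranked 67th, 50th and 54th among the porcine mature names. The total behind these shares leaves out reads of ssc-miR-133a-3p at another hairpin, which was listed at 98 and 161 d only. The shares at those ages thus cannot be set directly against that at 63 d. Without ssc-miR-133a-3p in the total, the shares of ssc-miR-208b were 0.144%, 0.247% and 0.205%.

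ssc-miR-499-5p was higher than ssc-miR-208b in each of the 3 libraries. It was counted 1514, 4075 and 2231 times at 63, 98 and 161 d, which gave 2184 (2075 to 2296), 2900 (2812 to 2991) and 2128 (2041 to 2218) normalised reads. Here the 98 d library stood above the other two, whose intervals overlapped. The shares of porcine mature reads were 0.179% (0.170 to 0.188), 0.266% (0.258 to 0.274) and 0.162% (0.156 to 0.169), and the ranks were 48th, 40th and 50th. These shares have the same limit as those of ssc-miR-208b, and were 0.278%, 0.366% and 0.248% without ssc-miR-133a-3p in the total.

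ssc-miR-499-3p was close to the detection limit. In order of age it was counted 2, 9 and 5 times, that is, 2.88 (0.349 to 10.4), 6.41 (2.93 to 12.2) and 4.77 (1.55 to 11.1) normalised reads. These intervals overlapped in every pair, so no order of its levels could be set at this depth. At 63 d its count was below the 3 reads that a count of 0 allows. Its shares of the porcine mature reads, with the limit given for ssc-miR-208b, were 0.000236%, 0.000587% and 0.000364%.

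**Figure D1:**
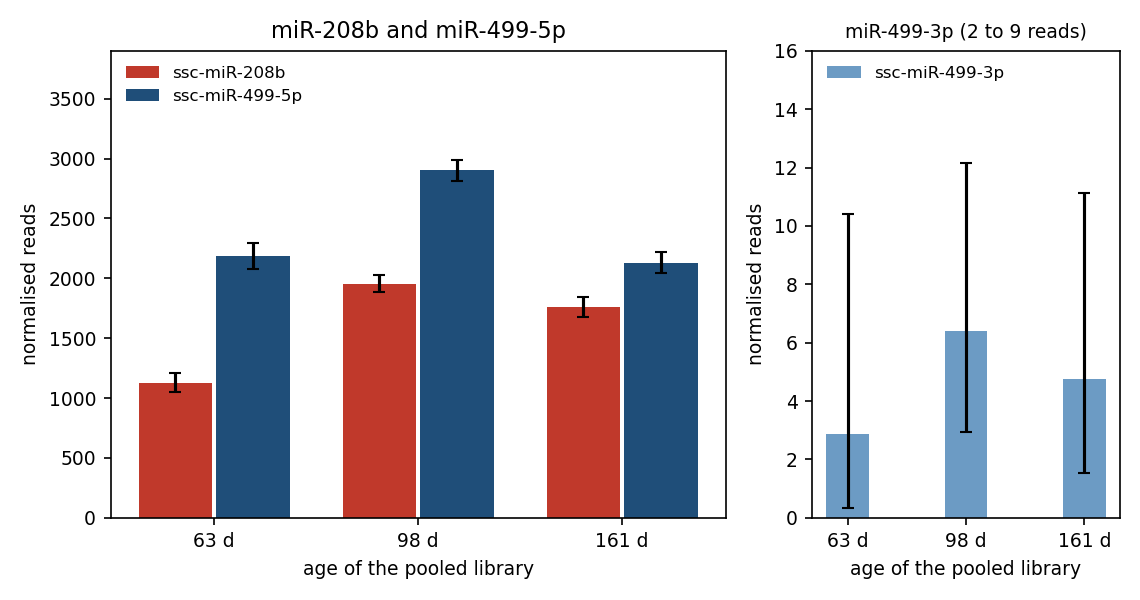
Normalised reads (vertical axes, linear, from 0) of ssc-miR-208b and ssc-miR-499-5p on the left and of ssc-miR-499-3p on the right, in the 1 pooled library of each age (horizontal axes). Bars are the values and whiskers the 95% Poisson intervals of the counts; ssc-miR-208b was lowest at 63 d (1129), ssc-miR-499-5p was highest at 98 d (2900), and the whiskers of ssc-miR-499-3p overlapped.

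From 63 to 98 d, ssc-miR-208b rose 1.73-fold (interval 1.60 to 1.88) and ssc-miR-499-5p rose 1.33-fold (1.25 to 1.41). The interval lay above 1 in 41.3% and below 1 in 37.1% of the 167 porcine mature miRNAs with at least 100 reads in either library, so an interval clear of 1 was common at these depths. Neither of the 2 members passed 2-fold in either direction. Of the 167, 22 passed it (13.2%), and the median fold of all 167 was 1.03. ssc-miR-208b had the 14th highest fold of the 167 and ssc-miR-499-5p the 46th. The value of ssc-miR-208b passed 2-fold under 1 other scaling, to all reads listed in the files, which gave 2.12.

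From 98 to 161 d both fell. ssc-miR-208b stood at 0.90 of its 98 d level (0.85 to 0.95) and ssc-miR-499-5p at 0.73 (0.70 to 0.77). The interval lay above 1 in 37.6% and below 1 in 35.3% of the miRNAs compared. Again neither was past 2-fold, against 12 of 170 miRNAs (7.06%) and a median fold of 1.02. They were placed 111th and 148th of 170 from the highest fold.

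Over the whole period, from 63 to 161 d, ssc-miR-208b rose 1.56-fold (1.43 to 1.69). The value of ssc-miR-499-5p was 0.97 (0.91 to 1.04), and this interval held 1. Of the miRNAs compared, 42.2% had an interval above 1 and 40.4% one below 1. Past 2-fold were 25 of 166 miRNAs (15.1%) and neither of these 2. With scaling factors drawn from the 63 and 161 d libraries alone, the folds were 1.55 for ssc-miR-208b and 0.97 for ssc-miR-499-5p. The folds of ssc-miR-499-3p were 2.22 (0.46 to 21.1) from 63 to 98 d, 0.74 (0.20 to 2.47) from 98 to 161 d and 1.65 (0.27 to 17.4) from 63 to 161 d, and it had too few reads to be counted among the miRNAs compared.

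Scaling bears on these values, and the porcine mature total leaves out reads of ssc-miR-133a-3p at its other hairpin at 98 and 161 d. Compared with the median of ratios, scaling to the porcine mature total raised folds from 63 to 98 d by 0.17 on the log2 scale. It lowered those from 63 to 161 d, where the factor of the 161 d library was 0.10 higher on this scale. It lowered those from 98 to 161 d more, to 0.75 for ssc-miR-208b and 0.61 for ssc-miR-499-5p. It also changed the split of miRNAs past 2-fold, from 9 higher and 13 lower to 12 higher and 9 lower between 63 and 98 d, and from 6 and 6 to 4 and 13 between 98 and 161 d.

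**Figure D2:**
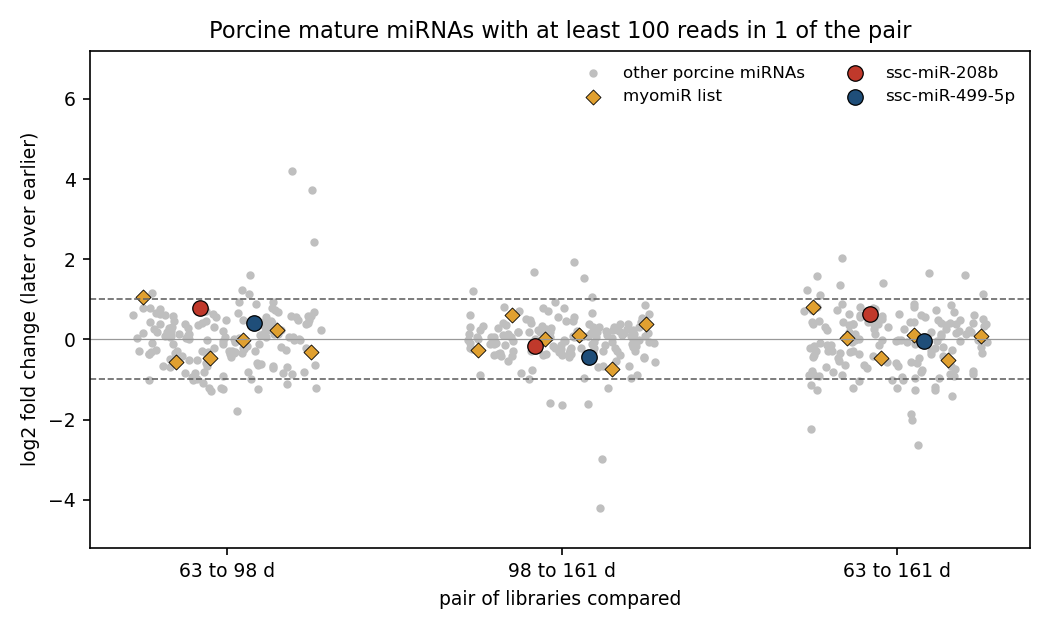
Log2 fold change, later over earlier library (vertical axis), of porcine mature miRNAs with at least 100 reads in either library of each pair (horizontal axis); grey points are other miRNAs, diamonds the myomiR list and dashed lines 2-fold. The sideways spread of points carries no value, and 5 values with a count of 0 in 1 library are not drawn. ssc-miR-208b (0.79, -0.15 and 0.64) and ssc-miR-499-5p (0.41, -0.45 and -0.04) lay inside the dashed lines in all 3 pairs.

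The ratio of the 2 miRNAs within a library does not depend on scaling. At 63 d the library held 0.517 reads of ssc-miR-208b per read of ssc-miR-499-5p (exact interval 0.474 to 0.564). The 98 d library held 0.674 (0.642 to 0.708) and the 161 d library 0.826 (0.776 to 0.879). The ratio was thus higher in each later library, with no overlap of the intervals. From 63 to 98 d the odds ratio was 1.30 (1.18 to 1.44), with an adjusted p of 2.0e-07 by a two-sided Fisher's exact test. From 98 to 161 d it was 1.23 (1.13 to 1.33), with an adjusted p of 3.9e-07 by the same exact test. From 63 to 161 d it was 1.60 (1.43 to 1.78), with an adjusted p of 9.5e-18 by the same exact test. P-values were adjusted by the Benjamini-Hochberg method over the 3 pairs, and these tests compare the reads of 2 libraries, not the ages. How often the ratio of other miRNAs changed as much was not tested, so the rise cannot be called particular to these 2 miRNAs. A ratio of reads is not a ratio of molecules, since adapters join to different miRNAs with different efficiency.

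The steps of this rise depended on which reads of an arm were counted. A miRNA arm gives a representative read, the one the authors listed for it, and reads that differ from it by a few bases at their ends or by a mismatch. The representative read of ssc-miR-208b was counted 478, 1901 and 1155 times at 63, 98 and 161 d, and that of ssc-miR-499-5p 1098, 2700 and 1665 times. With representative reads alone, the ratio was 0.435 (0.390 to 0.485), 0.704 (0.664 to 0.747) and 0.694 (0.643 to 0.748). It was higher at 98 than at 63 d, with an odds ratio of 1.62 (1.43 to 1.83) and an adjusted p of 1.7e-14 by Fisher's exact test. From 98 to 161 d the odds ratio was 0.99 (0.89 to 1.08), with an adjusted p of 0.77 by Fisher's exact test, so the second step was lost.

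The other reads, those that were not the representative read, gave a different order. Their ratio was 0.733 (0.630 to 0.852) in the 63 d library, 0.615 (0.564 to 0.671) in the next and 1.22 (1.09 to 1.36) in the 161 d library. The odds ratio from 63 to 98 d was 0.839 (0.705 to 0.9995), with an adjusted p of 0.048 by Fisher's exact test. From 98 to 161 d it was 1.98 (1.71 to 2.28), with an adjusted p of 4.9e-21 by the same exact test. This count was chosen after the data were seen. From 63 to 161 d the ratio was higher by all of these counts, with odds ratios of 1.60, 1.59 and 1.66 for all, representative and other reads.

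The representative read made up 61.0% (Wilson interval 57.6 to 64.4) of the reads of ssc-miR-208b in the 63 d library, 69.2% (67.5 to 70.9) in the 98 d library and 62.7% (60.4 to 64.8) in the 161 d library. For ssc-miR-499-5p it made up 72.5% (70.2 to 74.7), 66.3% (64.8 to 67.7) and 74.6% (72.8 to 76.4). In the 98 d library the share was thus higher than at both other ages for ssc-miR-208b and lower for ssc-miR-499-5p, with no overlap of the 98 d interval with the other two. Reads with a mapping error made up 2.30% (1.46 to 3.60), 4.84% (4.10 to 5.71) and 3.31% (2.59 to 4.23) of ssc-miR-208b, and 2.91%, 2.72% and 3.09% of ssc-miR-499-5p. Without them the ratio still rose in both steps, from 0.520 to 0.659 to 0.824.

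**Figure D3:**
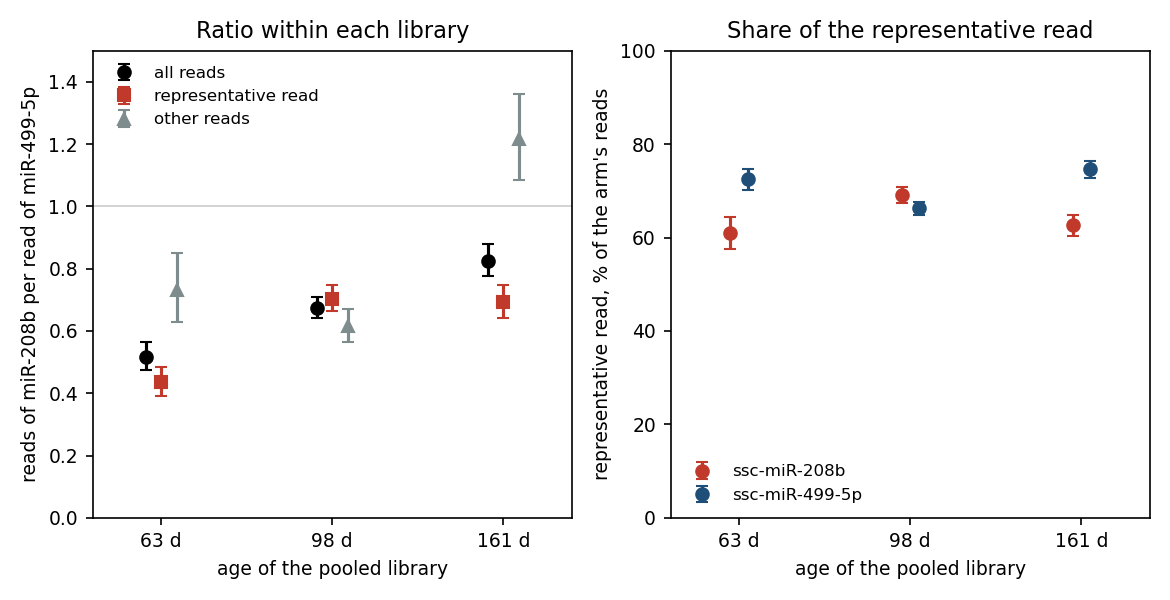
On the left, reads of ssc-miR-208b per read of ssc-miR-499-5p (vertical axis) in the pooled library of each age (horizontal axis), for all reads, representative reads and other reads, with exact 95% intervals. On the right, the representative read as a percentage of all reads of its arm, with 95% Wilson intervals; the ratio over all reads was 0.517, 0.674 and 0.826, while the share at 98 d was the highest of the 3 for ssc-miR-208b (69.2%) and the lowest for ssc-miR-499-5p (66.3%).

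One arm of each hairpin carried nearly all reads. ssc-miR-499-5p made up 99.87% (Clopper-Pearson interval 99.52 to 99.98) of the reads of both miR-499 arms in the 63 d library. In the later libraries it made up 99.78% (99.58 to 99.90) and 99.78% (99.48 to 99.93). For miR-208b, the opposite arm was listed under a human name, hsa-miR-208b-5p, from which the porcine read differed by A15C and A16G, and was counted 2, 7 and 1 times. The 3p arm, ssc-miR-208b, thus made up 99.75% (99.08 to 99.97), 99.75% (99.48 to 99.90) and 99.95% (99.70 to 99.999). The opposite arms of both hairpins were at or below 9 reads per library, and a change of arm use was not detectable at this depth.

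miR-208a, the miRNA of the heart myosin gene, was counted 7, 17 and 2 times in order of age, which gave 10.1, 12.1 and 1.91 normalised reads. It amounted to 0.886% (exact interval 0.357 to 1.82) of the reads of miR-208a and miR-208b together in the 63 d library. In the later libraries it amounted to 0.615% (0.359 to 0.983) and 0.108% (0.013 to 0.391). From 98 to 161 d its fold was 0.16 (0.02 to 0.66), and from 63 to 161 d it was 0.19 (0.02 to 0.99), while from 63 to 98 d the interval held 1 (1.20, 0.47 to 3.42). Relative to ssc-miR-208b, it was 0.18 (0.02 to 0.74) of its 98 d level at 161 d. These values rest on 2 reads at 161 d.

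Summed over all names, the 4 miRNAs that began with TAAGAC at base 2 had 2315, 6867 and 4102 reads in order of age. The fourth was a changed form of miR-499-5p, listed under an opossum name. ssc-miR-208b and ssc-miR-499-5p made up 99.2%, 99.3% and 99.3% of these reads. The sum was 3339, 4887 and 3912 normalised reads, so the pool of this shared short seed was highest in the 98 d library, as each of its 2 main members was.

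The myomiRs, miRNAs enriched in muscle, gave the setting. Of the list of 6 other myomiR arms, from 63 to 98 d 2 had a fold whose interval lay above 1 (ssc-miR-1 and ssc-miR-206), 3 had one below 1 (ssc-miR-133a-3p, ssc-miR-133a-5p and ssc-miR-486), and that of ssc-miR-133b held 1, beside 41.3% above and 37.1% below over all miRNAs compared. Their folds ranged from 0.68 to 2.08 with a median of 0.90, beside 1.03 over all miRNAs compared. The miR-133a arms (0.68 for 3p and 0.72 for 5p) were listed at 1 hairpin at 63 d. In the later libraries they were listed at 2, of which 1 was counted. The effect of this on their folds from 63 d was not tested. ssc-miR-1, which promotes muscle differentiation, rose 2.08-fold (2.05 to 2.12) and was the only one of the 6 past 2-fold in any of the 3 pairs with the median of ratios. With scaling to all reads listed, ssc-miR-206 was also past it from 98 to 161 d, at 0.49 (0.47 to 0.51). From 98 to 161 d, 3 lay above 1 (ssc-miR-133a-3p, ssc-miR-133b and ssc-miR-486) and 2 below (ssc-miR-1 and ssc-miR-206), beside 37.6% and 35.3% over all, with a range of 0.60 to 1.51 and a median of 1.04. From 63 to 161 d, 4 lay above 1 and 2 below (ssc-miR-133a-5p and ssc-miR-206), beside 42.2% and 40.4% over all, with a range of 0.70 to 1.74 and a median of 1.04. With scaling to the porcine mature total, ssc-miR-133b changed sides of 1 in all 3 pairs (1.11, 0.90 and 0.998), ssc-miR-133a-5p from 98 to 161 d (0.84), and ssc-miR-133a-3p (0.96) and ssc-miR-486 (0.99) from 63 to 161 d. Scaling to all reads listed also turned ssc-miR-133b in the first 2 pairs and ssc-miR-133a-5p from 98 to 161 d. ssc-miR-1 and ssc-miR-206 kept their side of 1 under each of the 4 other scalings.

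Both slow myosin miRNAs, ssc-miR-1 and ssc-miR-206 had an interval above 1 from 63 to 98 d and below 1 from 98 to 161 d. So had 30 of the 166 miRNAs compared in both pairs (18.1%, these 4 included), and the pattern is not particular to muscle miRNAs: the red blood cell marker ssc-miR-451 (1.48 and 0.91) and the endothelial marker ssc-miR-126-5p (1.53 and 0.86) also showed it. ssc-miR-206, a miRNA restricted to skeletal muscle, had 4008, 4677 and 2825 normalised reads. ssc-miR-133a-3p, which is transcribed together with miR-1 and acts on proliferation, was the most abundant porcine miRNA in every library, with 35.9%, 27.4% and 34.5% of porcine mature reads. The miR-133a arms were listed at 1 hairpin at 63 d and at 2 hairpins at 98 and 161 d. Reads listed at the other hairpin are left out of these shares. The shares at 98 and 161 d thus cannot be set directly against that at 63 d.

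Named by the smallest distance between their 2 log2 fold changes (63 to 98 d and 98 to 161 d) among 139 other miRNAs with at least 100 reads in every library, the nearest profiles to ssc-miR-208b were those of ssc-miR-99a, ssc-miR-30b-5p and ssc-miR-16. ssc-miR-99a had 368, 617 and 563 normalised reads, with folds of 1.68 and 0.91 and a distance of 0.05. ssc-miR-30b-5p (folds of 1.61 and 0.91) and ssc-miR-16 (1.59 and 0.96) were at distances of 0.11 and 0.15. The nearest to ssc-miR-499-5p were ssc-miR-676-3p, ssc-let-7f and ssc-miR-98, at distances of 0.03, 0.11 and 0.22. ssc-miR-676-3p had 206, 270 and 201 normalised reads, with folds of 1.31 and 0.74. The 2 slow myosin miRNAs were 0.48 apart, which placed ssc-miR-499-5p 25th from ssc-miR-208b and ssc-miR-208b 35th from ssc-miR-499-5p. Both changes share the 98 d library, and no test was made of this likeness.

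**Figure D4:**
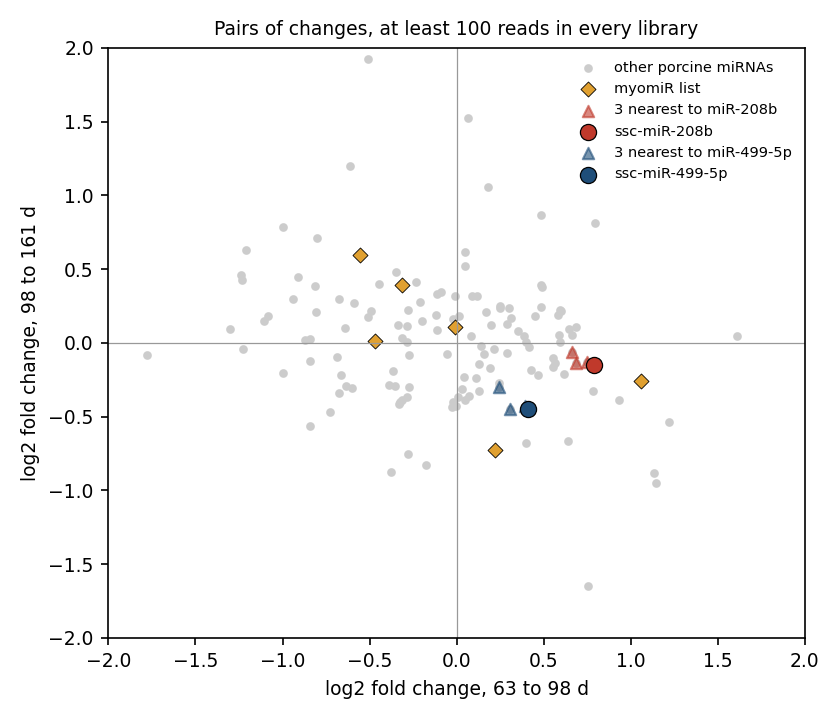
Log2 fold change from 63 to 98 d (horizontal axis) and from 98 to 161 d (vertical axis) of the 140 porcine mature miRNAs with at least 100 reads in every library. Large circles are the 2 slow myosin miRNAs, triangles the 3 nearest to each and diamonds the myomiR list; ssc-miR-208b lies at 0.79 and -0.15, ssc-miR-499-5p at 0.41 and -0.45.

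The skeletal muscle markers ssc-miR-1, ssc-miR-133a-3p, ssc-miR-133b and ssc-miR-206 were all detected in each library. Their summed level was 471660, 360931 and 503914 normalised reads in order of age. The sum, lowest at 98 d, was mostly ssc-miR-133a-3p (438709, 299020 and 452620), counted at 1 hairpin. By contrast, ssc-miR-1 (26145, 54458 and 45474) and ssc-miR-206 (4008, 4677 and 2825) were highest at 98 d. ssc-miR-133b had 2798, 2776 and 2995. Markers of other cells were also present, and none of those listed was at 0. The summed level of the 2 red blood cell markers (ssc-miR-451 and ssc-miR-144) was 1706, 2566 and 2287 normalised reads at 63, 98 and 161 d, that of the 2 leukocyte markers found of 3 (ssc-miR-142-5p and ssc-miR-142-3p) was 1336, 1811 and 1494, and that of the 2 endothelial markers (ssc-miR-126-3p and ssc-miR-126-5p) was 12323, 16813 and 14458. These 3 sums were highest at 98 d, as were ssc-miR-1, ssc-miR-206, ssc-miR-208b and ssc-miR-499-5p. The part of these other cells in the result was not tested. The smooth muscle markers ssc-miR-143-3p and ssc-miR-145-5p summed to 19815, 20349 and 58170. The liver marker ssc-miR-122 was counted 11, 297 and 12 times, so the 98 d library stood apart in it. Outside the marker lists, ssc-miR-192 (39, 426 and 106 reads) and ssc-miR-215 (12, 448 and 42) also had their highest count there. Other miRNAs were not surveyed for this, and the part of it in the results at 98 d was not tested. Without the 98 d library, the comparison of 63 with 161 d gave the folds of 1.55 and 0.97 stated above.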

How the data were processed

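Per the labels, small RNA libraries were made with the TruSeq kit and sequenced on an Illumina HiSeq 2000. The authors filtered and mapped reads to miRBase and the pig genome with ACGT101-miR v4.2. The deposited files give, per arm, estimated counts of all its reads (reads that map to several hairpins are divided among them) and whole counts of its representative read. A name at several hairpins was counted at the hairpin listed in most libraries.

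Counts were scaled by the median of ratios over the 249 porcine mature miRNAs counted in every library (factors 0.693, 1.41 and 1.05 at 63, 98 and 161 d). Folds had no pseudocount, and counts were rounded to whole numbers. Intervals were exact conditional binomial (folds, ratios), exact Poisson (levels), Wilson or Clopper-Pearson (shares), at 95%. A fold was said to rise or fall where its interval excluded 1, and was called at 2-fold. The floor was 3 counts. Scripts used Python 3.11.15, scipy 1.17.1 and, for TMM factors, edgeR 4.0.16. Only the fold, its interval and the 2-fold call were tested on simulated Poisson counts, with the scaling factors given and not estimated.

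Named miRNAs were the members, the myomiR list, all miRNAs sharing bases 2 to 7 with a member, and the 3 nearest profiles to each of the 2 abundant members. Members and lists were chosen with earlier results of these data known. Alternatives were other scalings, read definitions, minimum counts and denominators.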

Additional observations from a re-analysis of the deposited data

Results flagged for a closer look

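Reads of miR-208 and miR-499 also stood under names of other species, which the comparisons of porcine names do not use, and were noted where they exceeded the 3 reads that a count of 0 allows. bta-miR-208a had 7 reads at 63 d and 17 at 98 d, and 2 at 161 d. hsa-miR-208b-5p, the opposite arm of miR-208b, had 7 reads at 98 d. mdo-miR-499-5p, placed at the porcine miR-499 hairpin with 1 mismatch, had 11, 28 and 26 reads at 63, 98 and 161 d. Its read differed from ssc-miR-499-5p by C11T, counted from the 5′ end and outside the seed. These reads made up 0.721% (Wilson interval 0.403 to 1.29), 0.682% (0.473 to 0.985) and 1.15% (0.787 to 1.68) of the reads of both forms, and the 3 intervals overlapped. Whether the changed base arose in the animals or in sequencing was not tested.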

How the results depend on the processing

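Each fold of ssc-miR-208b kept its direction and an interval that excluded 1 under the 8 alternatives, with ranges of 1.64 to 2.12 (63 to 98 d), 0.72 to 0.93 (98 to 161 d) and 1.45 to 1.61 (63 to 161 d). So did the first 2 folds of ssc-miR-499-5p (1.19 to 1.63 and 0.59 to 0.84). Its fold from 63 to 161 d, 0.97, came to exclude 1 with scaling to the porcine mature total (0.91) and with all listed hairpins summed (0.91), and turned to 1.01 with representative reads. With those, ssc-miR-499-3p from 98 to 161 d turned from 0.74 to 1.03. This rests on 4 copies of a read of 22 bases at 98 d and 3 copies of one of 19 bases at 161 d. No fold was computed on the reads other than the representative read, so the ranges above do not cover them. Before scaling, these reads numbered 305, 846 and 688 for ssc-miR-208b at 63, 98 and 161 d, and 416, 1375 and 566 for ssc-miR-499-5p. The ratio of ssc-miR-208b to ssc-miR-499-5p moved to 0.435 at 63 d and 0.694 at 161 d with representative reads, whose odds ratio from 98 to 161 d turned to 0.99, and to 0.733, 0.615 and 1.22 with the other reads, whose odds ratio from 63 to 98 d turned to 0.84. The cause was not tested. Of all reads listed, ssc-miR-208b made up 0.0535%, 0.114% and 0.0822% at 63, 98 and 161 d and ssc-miR-499-5p 0.103%, 0.169% and 0.0995%. Without ssc-miR-133a-3p in the denominator the shares were 0.144%, 0.247% and 0.205%, and 0.278%, 0.366% and 0.248%. miRNAs past 2-fold numbered 22, 12 and 25 in the 3 pairs, 41, 30 and 46 with a minimum of 10 counts, and 65, 51 and 67 with no minimum. No paired analysis was possible because each age has 1 library.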
